A study of Homo sapiens with 16 samples.

Results

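Collagens are the main structural proteins of the extracellular matrix, and each collagen molecule is a triple helix of 3 chains encoded by separate COL genes. The collagen chain genes were taken by symbol (COL, a type number, A and a chain number), which gave 44 of the 62069 gene identifiers in the count table. The 10 antisense, divergent and pseudogene symbols with a similar name, with 0 to 6 counts each over all libraries, were left out. By the structure their proteins build, 11 of the 44 are fibrillar chains, 6 are basement membrane chains of type IV, 10 are FACITs (fibril-associated chains with interrupted triple helices) and 17 belong to other classes.

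The cells were IMR90 ER:RAS, sequenced in 16 RNA libraries. IMR90 is a line of human lung fibroblasts, and ER:RAS is a RAS protein joined to the ligand-binding domain of the oestrogen receptor, so that the drug 4OHT (4-hydroxytamoxifen) switches it on and the cells enter oncogene-induced senescence. All 4 groups carry the fusion, were grown in DMEM with 10% FBS, were at passage 15 and were collected at day 6. EV holds vector cells that the labels call non-senescent, with no 4OHT named in their treatment. The day is labelled as days after 4OHT and is 6 for EV too, so EV was taken as untreated on its treatment label alone. EV_4OHT holds vector cells made senescent with 100 nM 4OHT, and shAHCY_2 and shAHCY_4 hold cells given 4OHT and 1 of 2 hairpins against AHCY, the enzyme that breaks down S-adenosylhomocysteine. Each group has 4 libraries, named by the replicate numbers of their titles (49 to 52, 53 to 56, 57 to 60 and 61 to 64). There is no group with a hairpin and without 4OHT, and none with 4OHT and without the fusion. Whether the 4 libraries of a group were grown as separate cultures is not said in the labels. All p-values therefore rest on library-to-library spread, part or all of which may be technical.

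Fibroblasts are the main source of the fibrillar collagens of the lung. Type I collagen, a trimer of COL1A1 and COL1A2 chains, makes up the bulk of the fibrils, with type III and type V chains built into them. Type IV collagen forms the sheet of the basement membrane, type VI forms beaded filaments around cells, and FACITs sit on the surface of fibrils. After synthesis the chains are hydroxylated, folded with the help of chaperones, exported, trimmed by proteases and cross-linked, and matrix metalloproteinases break the finished fibres down.

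The type IV genes lie in pairs that are read in opposite directions from a shared promoter region, so 1 window of each tested pair is given here, beside windows of COL10A1 and COL7A1, which rose with 4OHT. Windows of 300 bases, from 250 before to 50 after the start of transcription, were taken from RefSeq (GRCh38.p14). They were found for 32 of the 44 chain genes and for 18 of the 25 that could be tested. Some genes have several starts. COL4A1 and COL4A2 start 127 bases apart on chromosome 13, and their windows share 226 bases. COL4A6 and COL4A5 start 380 bases apart on chromosome X at the nearer of 2 COL4A6 starts, and their windows share 121 bases. COL4A4 and COL4A3 start 419 bases apart on chromosome 2. The lines below give the windows of COL4A2 (chr13:110307034-110307333, plus strand), COL4A5 (chrX:108439588-108439887, plus strand), the 2 of 3 COL10A1 windows that hold a motif (chr6:116126083-116126382 and chr6:116158723-116159022, minus strand) and COL7A1 (chr3:48595280-48595579, minus strand), each written 5′ to 3′ on the gene's strand. Capitals mark a match, on either strand, to the CCAAT box, TGANTCA (a loose form of the AP-1 motif), the GC box GGGCGG or the TATA motif TATAAA.
COL4A2: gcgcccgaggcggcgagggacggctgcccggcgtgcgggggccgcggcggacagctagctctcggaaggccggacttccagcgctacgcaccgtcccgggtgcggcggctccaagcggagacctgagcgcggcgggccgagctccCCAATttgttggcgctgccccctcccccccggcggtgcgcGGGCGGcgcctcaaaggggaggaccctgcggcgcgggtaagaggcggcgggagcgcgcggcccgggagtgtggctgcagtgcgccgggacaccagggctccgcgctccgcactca
COL4A5: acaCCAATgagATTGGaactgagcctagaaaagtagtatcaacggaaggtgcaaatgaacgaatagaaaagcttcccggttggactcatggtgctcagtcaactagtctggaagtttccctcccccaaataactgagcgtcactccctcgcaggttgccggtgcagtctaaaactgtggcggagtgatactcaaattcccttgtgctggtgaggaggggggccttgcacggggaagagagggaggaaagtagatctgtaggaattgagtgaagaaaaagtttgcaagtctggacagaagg
COL10A1 (116126083): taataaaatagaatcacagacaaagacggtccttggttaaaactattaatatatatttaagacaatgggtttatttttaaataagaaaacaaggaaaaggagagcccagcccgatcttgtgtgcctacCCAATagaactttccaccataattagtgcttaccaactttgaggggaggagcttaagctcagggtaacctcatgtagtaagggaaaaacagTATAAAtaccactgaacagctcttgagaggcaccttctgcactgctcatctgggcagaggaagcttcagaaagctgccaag
COL10A1 (116158723): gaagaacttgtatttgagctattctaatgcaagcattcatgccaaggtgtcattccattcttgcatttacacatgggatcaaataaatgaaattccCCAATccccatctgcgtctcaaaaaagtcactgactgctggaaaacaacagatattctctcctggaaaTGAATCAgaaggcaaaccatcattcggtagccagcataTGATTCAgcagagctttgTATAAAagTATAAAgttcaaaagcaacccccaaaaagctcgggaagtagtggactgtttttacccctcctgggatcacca
COL7A1: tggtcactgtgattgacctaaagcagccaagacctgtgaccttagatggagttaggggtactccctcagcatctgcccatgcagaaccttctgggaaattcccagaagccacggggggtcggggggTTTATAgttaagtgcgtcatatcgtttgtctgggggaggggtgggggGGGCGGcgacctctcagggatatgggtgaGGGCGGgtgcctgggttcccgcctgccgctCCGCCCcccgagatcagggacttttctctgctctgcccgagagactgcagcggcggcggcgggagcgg

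The 18 tested genes have 24 windows. CCAAT was in 8 of the 24 (of COL10A1, COL11A1, COL4A1, COL4A2, COL4A5, COL4A6 and COL5A3), and in 34.61% of the 35116 windows of all genes. GGGCGG was in 16 of the 24, and in 44.95% of all windows. TATAAA was in 6 of the 24, and in 11.53% of all windows. TGANTCA was in 1 of the 24, with 2 matches in the 116158723 window of COL10A1, and in 7.71% of all windows. These matches, TGAATCA and TGATTCA, have A or T at N, so they meet the loose form only and are not the usual AP-1 site. The share of all windows is for the loose form too. Overlapping windows of a type IV pair count the shared bases in both. These are matches of letters in the windows and were not tested against the expression values.

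Libraries held 8236199 to 18235787 counts. AHCY had 110 to 334 counts in the 8 hairpin libraries and 1552 to 2583 in the 8 vector libraries, so the groups did not overlap. Replicate 59 of shAHCY_2 stood apart in how its counts varied with the GC content of genes (Spearman rho across genes -0.549), followed by replicate 51 of EV (-0.276), and the other 14 libraries lay between -0.121 and 0.289. The cells were checked against marker genes. All 10 fibroblast markers were above 1 CPM (counts per 1e6 counts, scaled by TMM factors) in every group, and 0 of 6 immune markers were, with CD3E at 0 counts. Of 8 epithelial markers 5 were above 1 CPM in EV: KRT19 (50.9 CPM), KRT18 (34.1), CLDN4 (19.2), KRT8 (7.56) and EPCAM (2.43), while SFTPC had 0 counts in all libraries and KRT5 had 1. Of 6 endothelial markers TEK (5.74 CPM) and VWF (1.08) were above 1 CPM in EV, and PECAM1 and CDH5 had 0 counts in all libraries.

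Of the 44 chain genes, 25 passed the filter on low counts and 19 did not. The 25 include chains that may have passed through 1 group only, so counts over them are not counts over all collagen chains. Among the 19, COL26A1 had 0 counts over all 16 libraries, where a count of 0 allows up to 0.0138 CPM. The others with their total counts were COL23A1 (3), COL6A5 (4), COL2A1 (5), COL4A4 (6), COL20A1 (7), COL9A1 (8), COL4A3 (13), COL9A3 (15), COL25A1 (18), COL22A1 (20), COL6A6 (28), COL8A2 (28), COL21A1 (31), COL11A2 (46), COL28A1 (85), COL19A1 (91), COL9A2 (95) and COL17A1 (113). The low chains include the cartilage chains of types II and IX and the COL4A3 and COL4A4 pair of the glomerular basement membrane.

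Most of the collagen chain genes tested were lower in senescent cells, and a few were higher. In EV_4OHT against EV, 16 of the 25 tested genes were lower and 5 were higher at an adjusted p under 0.05, by edgeR's quasi-likelihood test, adjusted by Benjamini-Hochberg across the 13526 genes that passed the filter, which gives every adjusted p here. Of all genes tested, 26.8% were lower and 26.7% were higher. The median log2 fold change of the 25 genes was -0.52, against -0.02 over all genes tested. Scaled by library totals alone, all genes had a median of -0.13, and 38.24% of called genes were higher, against 49.91% with TMM factors. The 4 genes that did not pass the test were COL24A1, COL27A1, COL6A3 and COL18A1. Together the 44 chain genes took 1.01% ± 0.0904 (SD, n = 4) of all counts in EV and 0.372% ± 0.015 in EV_4OHT. Without COL1A1, COL1A2 and COL3A1, the share was 0.207% ± 0.0146 in EV and 0.149% ± 0.00692 in EV_4OHT. In these bulk samples, fewer cells of a type and less RNA per cell cannot be told apart.

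**Figure D1:**
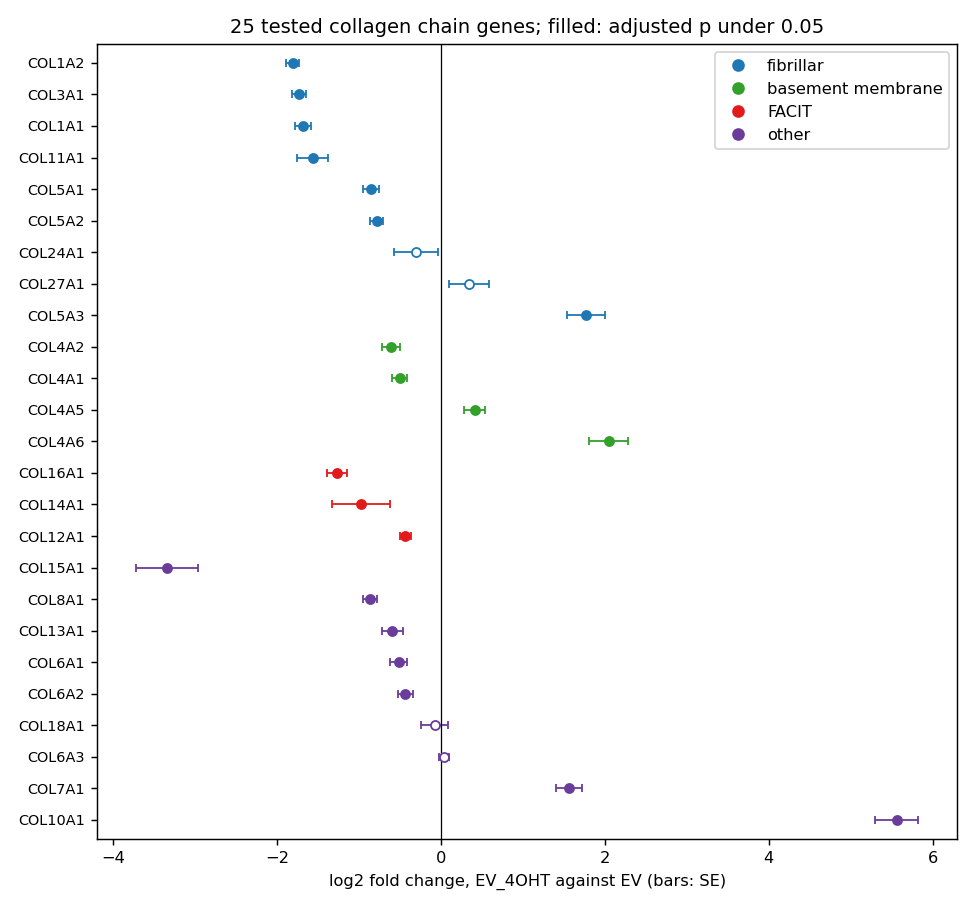
Log2 fold change in EV_4OHT against EV (x axis, bars are the standard error) for the 25 tested collagen chain genes (y axis), coloured by class, with filled points at an adjusted p under 0.05. COL15A1 lies farthest to the left at -3.35 and COL10A1 farthest to the right at 5.56, and all 3 tested FACITs lie left of 0.

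Markers of the fibroblast itself moved in the same comparison. The 10 fibroblast markers summed to 8334 to 9944 CPM in EV and 6278 to 6644 CPM in EV_4OHT, and 7 of the 10 fell, with decorin (DCN) changing most, at -3.03 ± 0.07 on the log2 scale. VIM, PDGFRA and TWIST2 did not pass the test. The 8 epithelial markers summed to 104 to 126 CPM in EV and 54.4 to 65.7 CPM in EV_4OHT. Of the 5 that could be tested, KRT19 (50.9 to 1.44 CPM) and CLDN4 (19.2 to 5.49 CPM) fell, KRT18 rose (34.1 to 44.7 CPM), and EPCAM and KRT8 did not pass the test. Of the 6 immune markers, 1 could be tested, PTPRC, at 0 CPM in EV and 0.42 CPM in EV_4OHT, and it was called higher. It passed the filter through libraries given 4OHT only, and with no count in EV the size of its rise is not defined. The part of these markers in the collagen results was not tested.

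Among the fibrillar chains, 9 of 11 could be tested, and 6 fell, 1 rose and 2 did not pass the test. COL1A1, the chain present 2 times in each type I molecule, was at 4039, 3666, 3278 and 4096 CPM in EV and at 1143, 1210, 1220 and 1108 CPM in EV_4OHT. Each EV library was above each EV_4OHT library, and the log2 fold change was -1.69 ± 0.09 (adjusted p = 7.34e-13). COL1A2, the other chain of type I, was at 3784, 3450, 3088 and 3715 CPM in EV and at 994, 987, 1042 and 980 CPM in EV_4OHT. Its groups did not overlap either, and it fell by 1.81 ± 0.08 on the log2 scale (adjusted p = 1.41e-14). COL3A1, the single chain of type III collagen, was at 480, 456, 424 and 507 CPM in EV and at 129, 140, 141 and 151 CPM in EV_4OHT. It fell by 1.73 ± 0.09 (adjusted p = 1.04e-13), so the 3 chains with the highest fibrillar counts fell by similar amounts, to 0.285 to 0.31 times their EV level.

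The minor fibrillar chains did not move as a block. COL5A1 and COL5A2, chains of type V collagen, which is built into type I fibrils, fell less than type I. COL5A1 went from 47.6 ± 2.49 to 26.3 ± 1.7 CPM, a log2 fold change of -0.85 ± 0.10 (adjusted p = 1.38e-07), and COL5A2 from 209 ± 18.5 to 121 ± 6.45 CPM, at -0.78 ± 0.08 (adjusted p = 3.17e-08). COL5A3, the remaining type V chain, went the other way. It was at 1.06, 1.43, 2.01 and 1.97 CPM in EV and at 4.16, 6.05, 5.36 and 6.69 CPM in EV_4OHT, with no overlap, and rose by 1.77 ± 0.23 (adjusted p = 8e-07). COL11A1, a chain best known from cartilage fibrils, fell from 15.8 ± 2.94 to 5.3 ± 1.51 CPM, at -1.57 ± 0.19 (adjusted p = 3.93e-07). For COL24A1 the 95% interval of the log2 fold change ran from -0.83 to 0.22, and for COL27A1 from -0.14 to 0.82, at means of 2.12 to 3.27 CPM in these groups.

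The 4 tested basement membrane chains divided by gene pair. COL4A1 and COL4A2, which together form the common type IV trimer, both fell. COL4A1 was at 192, 172, 144 and 159 CPM in EV and at 101, 120, 130 and 118 CPM in EV_4OHT, at -0.51 ± 0.09 on the log2 scale (adjusted p = 4.91e-05). COL4A2 was at 252, 228, 174 and 229 CPM in EV and at 130, 149, 161 and 137 CPM in EV_4OHT, at -0.61 ± 0.11 (adjusted p = 8.14e-05). Neither gene's groups overlapped. The annotated spans of these 2 genes overlap on opposite strands. COL4A5 and COL4A6, the pair on chromosome X, both rose, by very different amounts. COL4A6 was at 3.24, 1.84, 1.64 and 1.35 CPM in EV and at 7.40, 5.97, 10.7 and 9.10 CPM in EV_4OHT, with no overlap, and rose by 2.04 ± 0.24 (adjusted p = 2.44e-07). COL4A5 was at 13.9, 21.6, 15.1 and 16.6 CPM in EV and at 20.4, 21.4, 24.4 and 22.9 CPM in EV_4OHT, so the groups overlapped through replicate 50 of EV. Its rise of 0.41 ± 0.13 (adjusted p = 0.0113) did not pass the test without replicate 49 of EV (adjusted p = 0.0668), without replicate 55 of EV_4OHT (0.055) or when scaled by library totals alone (0.0582).

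All 3 FACITs that could be tested fell. COL12A1, a FACIT on the surface of type I fibrils, was at 232, 216, 204 and 214 CPM in EV and at 151, 164, 172 and 152 CPM in EV_4OHT, at -0.44 ± 0.07 on the log2 scale (adjusted p = 1.41e-05). COL16A1 fell further, from 77 ± 9.35 to 31.9 ± 2.77 CPM, at -1.27 ± 0.12 (adjusted p = 1.23e-08). COL14A1, another FACIT of fibril surfaces, had 40, 35, 39 and 36 counts in EV and 13, 21, 15 and 12 in EV_4OHT. The groups did not overlap, and it fell by 0.98 ± 0.35 (adjusted p = 0.0233), but without replicate 53, 55 or 56 of EV_4OHT the adjusted p was 0.0552, 0.0587 and 0.0713.

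Of the 9 tested genes in the other classes, 5 fell, 2 rose and 2 did not pass the test. Type VI collagen, whose beaded filaments need COL6A1, COL6A2 and a further chain such as COL6A3, was divided. COL6A1 was at 164, 201, 207 and 210 CPM in EV and at 123, 147, 134 and 143 CPM in EV_4OHT, at -0.52 ± 0.10 on the log2 scale (adjusted p = 0.00015). COL6A2 was at 73.4, 74.1, 73.5 and 83.7 CPM in EV and at 53.6, 57.03, 57.4 and 56.5 CPM in EV_4OHT, at -0.44 ± 0.09 (adjusted p = 0.000367). Neither chain's groups overlapped. COL6A3 was at 618, 552, 524 and 604 CPM in EV and at 577, 591, 608 and 575 CPM in EV_4OHT. These groups overlapped, with a log2 fold change of 0.03 (95% interval -0.09 to 0.16, adjusted p = 0.694), so the interval excludes a fall of the size measured for COL6A1.

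The widest changes in either direction were in network and multiplexin chains of low abundance, COL10A1 and COL15A1. Each had few counts in the group where it was low (21 for COL10A1 in EV, 24 for COL15A1 in EV_4OHT), so the size of its change is loose. COL10A1, the chain of type X collagen, known from hypertrophic cartilage, had 0, 7, 8 and 6 counts in EV and 168, 206, 208 and 236 counts in EV_4OHT. That was 0.317 ± 0.216 CPM against 15.5 ± 1.86 CPM, and the log2 fold change was 5.56 ± 0.27 (adjusted p = 5.16e-14), 47.2-fold. The libraries do not mark strand. COL10A1 lies within NT5DC1 on the opposite strand, so reads of the pair cannot be told apart by strand. Exons of the pair do not overlap in GENCODE 29, and the release used for the counts is not stated. NT5DC1 was at 28.3 CPM in EV and 21 CPM in EV_4OHT (-0.43 ± 0.11 on the log2 scale), and its part in the COL10A1 counts was not tested. Of the 6 chondrocyte markers, 2 could be tested and 0 rose. COL2A1 was at 0.0416 CPM in EV_4OHT, MATN1 had no count there, ACAN was at 0.196 CPM and COMP at 0.358 CPM. SOX9 was at 26.1 CPM in EV and 24.6 CPM in EV_4OHT and MATN3 at 7.57 and 1.59 CPM, and the 6 chondrocyte markers summed to 32.2 to 37.6 CPM in EV and 23.2 to 28.7 CPM in EV_4OHT.

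COL15A1, a multiplexin that links basement membrane to the fibrils below it, had 103, 57, 74 and 76 counts in EV and 6, 5, 1 and 12 counts in EV_4OHT. Its log2 fold change was -3.35 ± 0.37 (adjusted p = 1.11e-07), 0.0984 times the EV level. COL18A1, the other multiplexin and the source of endostatin, did not pass the test (-0.08, 95% interval -0.40 to 0.24). Its exons overlap those of SLC19A1 on the opposite strand, which had 6105 counts against 1425 for COL18A1 over all libraries. COL7A1, which forms the anchoring fibrils under epithelia, was at 5.72, 6.01, 4.44 and 6.21 CPM in EV and at 14.0, 20.4, 16.7 and 14.7 CPM in EV_4OHT, with no overlap, and rose by 1.56 ± 0.16 (adjusted p = 2.58e-08). COL8A1, a short-chain network collagen of vessel walls, fell from 112 ± 10.1 to 61.2 ± 4.71 CPM (-0.87 ± 0.09). COL13A1, a transmembrane collagen, fell from 27 ± 3.14 to 17.9 ± 1.42 CPM (-0.59 ± 0.13).

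**Figure D2:**
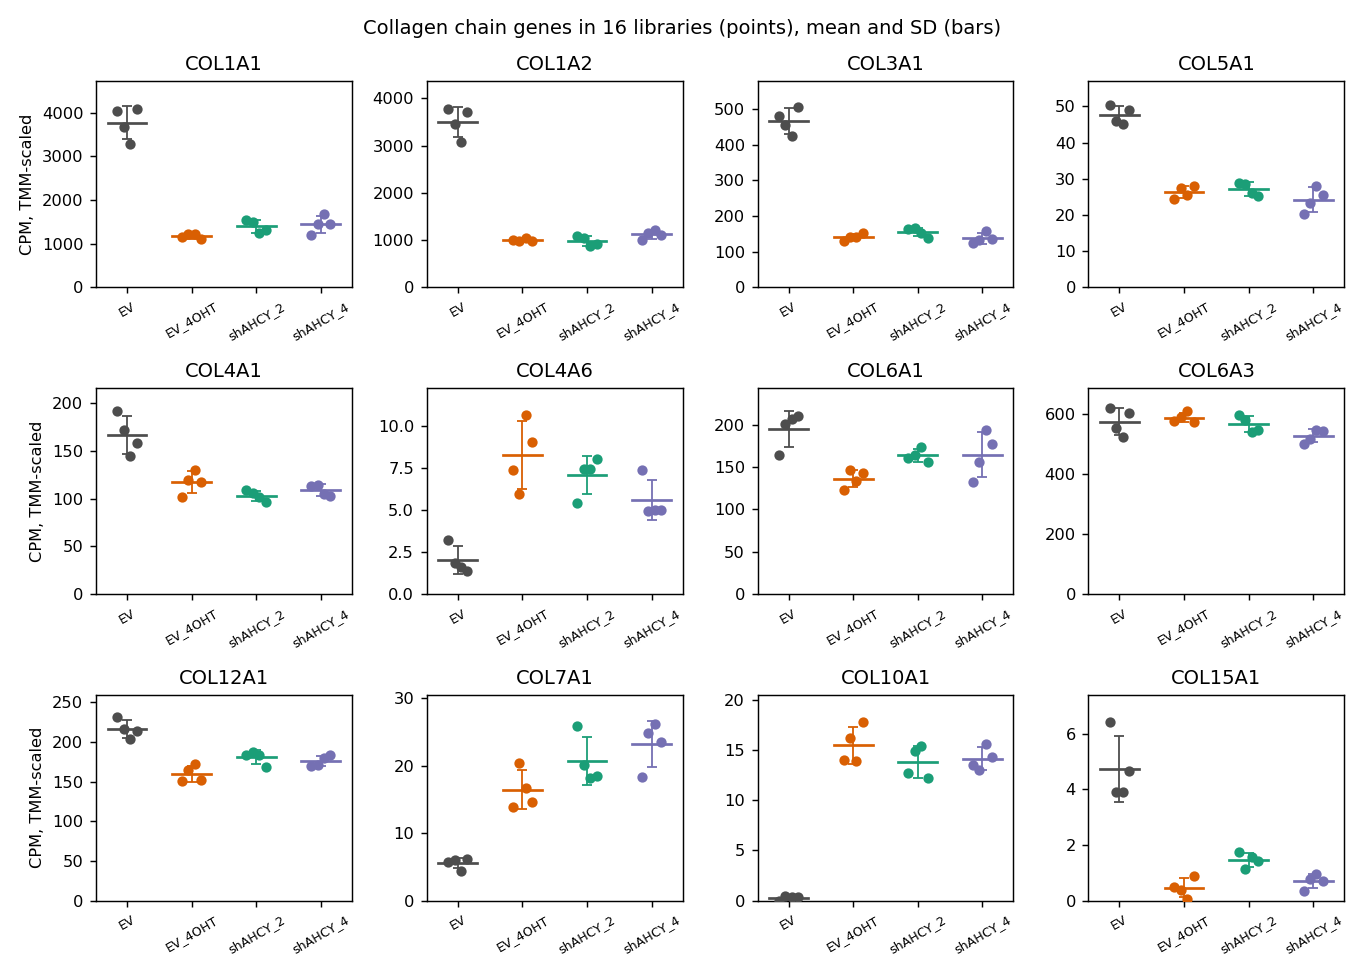
TMM-scaled CPM (y axis, from 0) of 12 collagen chain genes in each library (points) of the 4 groups (x axis), with the group mean (line) and SD (bar). COL1A1 lies at 3278 to 4096 CPM in EV and at 1108 to 1679 CPM in the 12 libraries given 4OHT, COL6A3 lies at 501 to 618 CPM in all 16, and COL10A1 rises from 0.317 CPM to group means of 13.8 to 15.5 CPM.

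The make-up of the collagen RNA differed between EV and EV_4OHT. COL1A1 and COL1A2 took 74.8% ± 0.595 of collagen counts in EV and 56.2% ± 0.669 in EV_4OHT. Levels of different genes were compared as CPM per kb of the longest annotated transcript. In EV the order of means was COL1A2 (586 ± 52.7) and COL1A1 (560 ± 56.3), with overlapping ranges between libraries. COL3A1 (84.2 ± 6.36), COL6A3 (53.4 ± 4.1) and COL6A1 (46.2 ± 5.03) followed, the last 2 with overlapping libraries. In EV_4OHT the order of means was COL1A1 (174 ± 8.04) and COL1A2 (167 ± 4.71), again with overlapping ranges. COL6A3 (54.7 ± 1.43), COL6A1 (32.2 ± 2.49) and COL3A1 (25.3 ± 1.63) followed. COL6A3 thus stood above COL3A1 per kb in EV_4OHT and below it in EV. The ranges of COL1A1 and COL1A2 leave out that both genes were measured in the same libraries. Within libraries, the count ratio of COL1A1 to COL1A2 was 1.06 to 1.10 in EV and 1.13 to 1.23 in EV_4OHT, without overlap.

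Chains that share a trimer or a fibril were compared as the ratio of their counts within each library, given here as a description with no test. The ratio of COL1A1 to COL1A2 was 1.06 to 1.10 in EV, 1.13 to 1.23 in EV_4OHT, 1.43 to 1.44 in shAHCY_2 and 1.196 to 1.39 in shAHCY_4. The 4 shAHCY_2 libraries, replicate 59 included (1.43), lay above all 12 other libraries. COL1A1 transcripts have a GC content of 61.1% and those of COL1A2 41.7%, and after removal of the GC trends COL1A1 was at 0.32 and COL1A2 at -0.11 in shAHCY_2 against EV_4OHT on the log2 scale. The ratio of COL6A3 to COL6A1 was 2.53 to 3.77 in EV and 4.02 to 4.69 in EV_4OHT, and lay at 3.10 to 3.72 in shAHCY_2 and 2.83 to 3.78 in shAHCY_4, so both hairpin groups overlapped EV and neither overlapped EV_4OHT.

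The ratio of COL5A1 to COL1A1 was 0.0127 ± 0.000748 in EV, 0.0225 ± 0.00195 in EV_4OHT, 0.0195 ± 0.000956 in shAHCY_2 and 0.0168 ± 0.000662 in shAHCY_4. The ratio of COL3A1 to COL1A1 was 0.124 ± 0.00431, 0.12 ± 0.0111, 0.112 ± 0.00837 and 0.0953 ± 0.00543 in the same order, with shAHCY_4 below every EV and EV_4OHT library. Within type IV, COL4A1 to COL4A2 was 0.76 ± 0.0562 in EV and 0.813 ± 0.0319 in EV_4OHT, and the groups overlapped. COL4A5 to COL4A6 was 4.31 to 12.3 in EV and 2.27 to 3.59 in EV_4OHT. COL6A1 to COL6A2 (2.57 ± 0.256 and 2.43 ± 0.141) and COL5A1 to COL5A2 (0.228 ± 0.0113 and 0.218 ± 0.0248) overlapped between these groups.

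**Figure D3:**
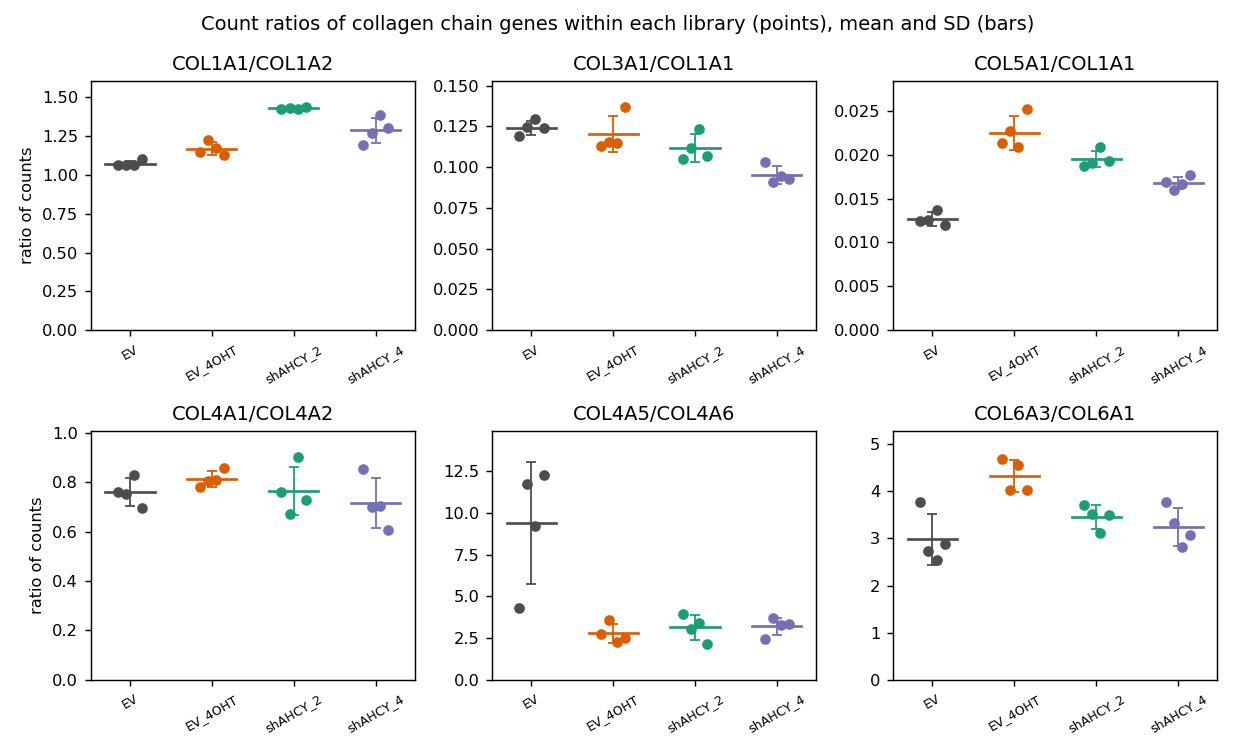
Ratio of counts (y axis, from 0) of 6 pairs of collagen chain genes in each library (points) of the 4 groups (x axis), with mean (line) and SD (bar). COL1A1 to COL1A2 is highest in shAHCY_2, with a mean of 1.43, and COL6A3 to COL6A1 is highest in EV_4OHT, with a mean of 4.32.

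The hairpins moved few collagen chain genes. In shAHCY_2 against EV_4OHT, 1 of the 25 genes was higher and 0 were lower, where 3.91% of all genes tested were higher and 3.07% lower. At an unadjusted p under 0.05 there were 9 genes, and 9 also in shAHCY_4 against EV_4OHT. DESeq2 and limma-voom each called 1 in shAHCY_2. The shares of all genes at the unadjusted cutoff and with these tools were not computed, so those counts have no background to be read against. In shAHCY_4 against EV_4OHT, 3 of the 25 were higher and 1 was lower, where 7.58% of all genes tested were higher and 6.86% lower, and the other tools each called 4. Read against the shares of all genes tested by the main test, its counts of chain genes were near the background in both comparisons. The member medians were 0.05 and -0.03 on the log2 scale, against 0.01 and 0.01 over all genes. With library totals, 69.83% and 67.4% of all called genes were higher in shAHCY_2 and shAHCY_4, against 56.04% and 52.48% with TMM factors. Both comparisons share the 4 EV_4OHT libraries, so values on their 2 sides are not independent.

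COL15A1 was the gene called in shAHCY_2. It had 19, 16, 15 and 21 counts there, against 6, 5, 1 and 12 in EV_4OHT, or 1.47 ± 0.257 CPM against 0.465 ± 0.345 CPM. The groups did not overlap, and it rose by 1.66 ± 0.42 on the log2 scale (adjusted p = 0.0184). Without replicate 54 or 55 of EV_4OHT the adjusted p was 0.0545 and 0.0581, and with only the groups compared in the fit it was 0.051. In shAHCY_4 it had 3, 10, 13 and 11 counts, which overlapped EV_4OHT (0.68 ± 0.47, adjusted p = 0.374). It stayed below EV with both hairpins, at -1.69 ± 0.32 and -2.66 ± 0.35.

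In shAHCY_4, COL1A1, COL6A2 and COL7A1 rose. COL6A2 was at 62.2, 70.1, 85.2 and 77.1 CPM in shAHCY_4 against 53.6 to 57.4 CPM in EV_4OHT, with no overlap, and rose by 0.39 ± 0.09 (adjusted p = 0.00588). COL1A1 was at 1198, 1446, 1679 and 1448 CPM, of which replicate 61 lay within the range of EV_4OHT, and rose by 0.30 ± 0.09 (adjusted p = 0.0282). COL7A1 was at 18.4, 24.9, 26.2 and 23.5 CPM against 14.0 to 20.4 CPM, again overlapping through replicate 61, and rose by 0.51 ± 0.15 (adjusted p = 0.0219). The COL1A1 call was lost without replicate 53, 54 or 56 of EV_4OHT or 62 or 63 of shAHCY_4 (adjusted p = 0.0526 to 0.145), and the COL7A1 call without 53, 56, 62 or 63 (0.0685 to 0.085).

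The same 3 genes in shAHCY_2 were at 0.25 ± 0.09 for COL1A1 (adjusted p = 0.0995), 0.21 ± 0.09 for COL6A2 (0.187) and 0.33 ± 0.15 for COL7A1 (0.188). COL1A1 was at 1545, 1490, 1241 and 1304 CPM in shAHCY_2, each above each EV_4OHT library. All 3 transcripts are rich in GC, at 61.1%, 66.4% and 64.8%, against a median of 47.5% over the genes tested, and replicate 59 belongs to this group. With each library's GC trend removed, 5 genes were higher in shAHCY_2: COL1A1 (0.32, adjusted p = 0.000804), COL6A1 (0.34, 0.0386), COL6A2 (0.28, 0.00809), COL7A1 (0.40, 0.0389) and COL15A1. Without replicate 59, 2 were higher, COL15A1 and COL1A1 (0.30, adjusted p = 0.0357). The share of all genes called was not computed for either fit, so these counts cannot be set against a background.

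COL14A1 was the gene lower in shAHCY_4. It had 0, 4, 4 and 13 counts there, against 13, 21, 15 and 12 in EV_4OHT, or 0.366 ± 0.354 CPM against 1.16 ± 0.335 CPM. The groups did not overlap in CPM, and it fell by 1.47 ± 0.45 (adjusted p = 0.0312). The call was lost without replicate 53 or 54 of EV_4OHT or 61, 62 or 63 of shAHCY_4, with adjusted p from 0.0519 to 0.106. In shAHCY_2 it was at 1.01 ± 0.262 CPM (-0.17 ± 0.39, adjusted p = 0.841). Of the type IV chains in shAHCY_4, COL4A5 was at -0.35 ± 0.13 (adjusted p = 0.0792) with no overlap and COL4A6 at -0.59 ± 0.22 (adjusted p = 0.0811).

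No chain gene differed between the hairpins by this test. In shAHCY_4 against shAHCY_2, 0 of 25 were higher and 0 lower, where 0.54% of all genes tested were higher and 0.702% lower. DESeq2 and limma-voom called 0, and 5 genes had an unadjusted p under 0.05, a cutoff at which the share of all genes was not computed. For COL1A1 the difference was 0.05, with a 95% interval from -0.13 to 0.23. For COL15A1 it was -0.98 (-1.75 to -0.20, adjusted p = 0.201) and for COL14A1 -1.30 (-2.21 to -0.40, adjusted p = 0.151), intervals that do not pass the test over all genes and do not show that the hairpins act alike.

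**Figure D4:**
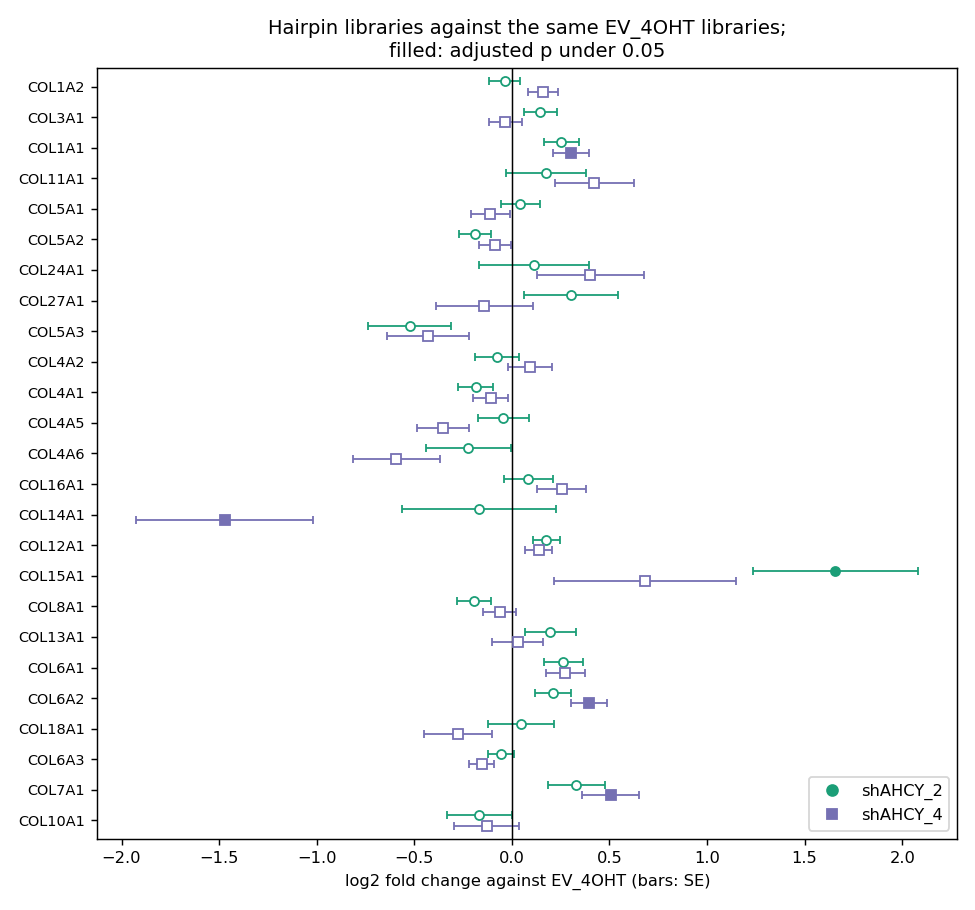
Log2 fold change (x axis, bars are the standard error) of the 25 tested collagen chain genes (y axis) in shAHCY_2 (circles) and shAHCY_4 (squares), each against the same 4 EV_4OHT libraries, with filled symbols at an adjusted p under 0.05. COL15A1 in shAHCY_2 (1.66) and COL14A1 in shAHCY_4 (-1.47) lie farthest from 0, and the other filled symbols lie at 0.30 to 0.51.

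Set against the non-senescent cells, most chain genes were lower in both hairpin groups as well. In shAHCY_2 against EV, 16 of the 25 genes were lower and 6 higher, where 23.6% of all genes tested were lower and 24.5% higher. In shAHCY_4 against EV, 15 were lower and 4 higher, where 25.8% were lower and 25.4% higher. These comparisons share the EV libraries with the comparison of EV_4OHT. COL1A1 was at -1.43 ± 0.09 and -1.39 ± 0.09, COL1A2 at -1.85 ± 0.08 and -1.65 ± 0.08 and COL3A1 at -1.59 ± 0.09 and -1.77 ± 0.09 in shAHCY_2 and shAHCY_4. COL10A1 was at 13.8 ± 1.56 and 14.1 ± 1.14 CPM, higher than EV by 5.39 ± 0.27 and 5.43 ± 0.27.

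COL6A2 in shAHCY_4 had no difference from EV that passed the test (-0.04, 95% interval -0.22 to 0.14, adjusted p = 0.704), and in shAHCY_2 it was at -0.23 ± 0.09 (adjusted p = 0.0445). COL27A1 was higher than EV in shAHCY_2 (0.64 ± 0.24, adjusted p = 0.0326) with overlapping groups, and COL4A5 also (0.37 ± 0.13, adjusted p = 0.0253). Neither passed in shAHCY_4, at 0.19 and 0.06. The COL27A1 call was lost without replicate 51, 52, 57 or 60 (adjusted p = 0.0774 to 0.109), the COL4A5 call without 49, 51, 57, 58 or 59 (0.0583 to 0.128) and the COL6A2 call without 52, 59 or 60 (0.0624 to 0.14). With only the groups compared in the fit all 3 were lost (0.0638, 0.0734 and 0.0833), as were COL27A1 and COL4A5 when scaled by library totals (0.0605 and 0.0741) and COL27A1 and COL6A2 with no filter on low counts (0.0684 and 0.145). COL6A1 was lower than EV in shAHCY_2 and shAHCY_4, at -0.26 ± 0.10 (adjusted p = 0.0389) and -0.25 ± 0.10 (0.0449), with overlapping groups. Its shAHCY_2 call was lost without 50, 51, 52, 57, 58 or 60 or with the GC trend removed (0.0568 to 0.168). Its shAHCY_4 call was lost without 50, 51, 52, 61 or 62 or with RLE factors or DESeq2 (0.0501 to 0.187). Both were lost with only the groups compared (0.0507 and 0.0761), as was COL13A1 in shAHCY_2 (0.0527). The 44 chain genes took 0.403% ± 0.0399 of all counts in shAHCY_2 and 0.425% ± 0.0381 in shAHCY_4, with means between the 1.01% of EV and the 0.372% of EV_4OHT. Both hairpin groups overlapped EV_4OHT (0.3603% to 0.3936%), at 0.3581% to 0.4409% in shAHCY_2 and 0.3743% to 0.4665% in shAHCY_4. Type I took 58.1% ± 1.33 and 60.3% ± 1.46 of collagen counts.

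The genes that process collagen were described by 7 lists, again in EV_4OHT against EV, where 26.7% of all genes tested were higher and 26.8% lower. The cross-linking enzymes moved with the fibrillar chains. All 5 lysyl oxidases, which join collagen chains in the matrix, fell, with a list median of -1.42. LOX went from 820 ± 49.4 to 306 ± 14.6 CPM (-1.42 ± 0.07, adjusted p = 1.84e-13), LOXL1 changed by -1.83 ± 0.16, LOXL3 by -1.85 ± 0.23 and LOXL2 by -0.68 ± 0.09. Of the 15 hydroxylases, glycosyltransferases and partners that modify the chains in the endoplasmic reticulum, 8 rose and 2 fell, with a median of 0.32. PLOD2, a lysyl hydroxylase, rose by 0.90 ± 0.11 (adjusted p = 5.29e-07), P4HA2, a prolyl hydroxylase, by 0.67 ± 0.09 and PPIB by 0.45 ± 0.07, while P3H2 fell by 0.76 ± 0.12.

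Of 14 genes of chaperoning and export, 4 rose and 7 fell, with a median of -0.16. SERPINH1, the collagen chaperone HSP47, fell by 0.73 ± 0.09 (adjusted p = 8.84e-07), as did CREB3L1, a transcription factor of collagen secretion, by 0.74 ± 0.11, and TMEM38B, a channel of the endoplasmic reticulum, rose by 1.26 ± 0.08. Of 8 genes that remove the procollagen ends, 5 could be tested, and 3 fell and 1 rose. ADAMTS2, the procollagen N-proteinase, fell by 1.08 ± 0.17 (adjusted p = 1.34e-05), and ADAMTS3, of the same family, rose by 1.03 ± 0.34 (adjusted p = 0.0142). Of 10 genes of breakdown and uptake, 8 could be tested, and 5 rose and 0 fell, with a median of 0.87. MMP1, the interstitial collagenase, went from 616 ± 38.6 to 7650 ± 287 CPM (3.63 ± 0.07, adjusted p = 4.01e-21), CTSK, a lysosomal collagenase, from 123 ± 11.7 to 336 ± 13.2 CPM (1.45 ± 0.07), and MMP14 rose by 1.24 ± 0.10.

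Of 10 collagen receptors, 8 could be tested, and 2 rose and 5 fell. ITGA2, part of the collagen-binding integrin α2β1, rose by 0.80 ± 0.09 (adjusted p = 1.46e-07), and the discoidin receptors DDR1 (-0.61 ± 0.11) and DDR2 (-0.37 ± 0.08) fell. Of 22 regulators of collagen genes, 21 could be tested, and 6 rose and 11 fell, with a median of -0.42. SMAD3, which carries TGF-β signals to collagen promoters, fell by 1.07 ± 0.09 (adjusted p = 8.9e-10), and CCN2 fell by 0.53 ± 0.06. TGFB1, the ligand, rose by 1.19 ± 0.10 (adjusted p = 1.06e-09), and NFYA, a subunit of the factor that binds CCAAT, by 0.89 ± 0.09. Of its other subunits, NFYB fell by 0.81 ± 0.17 (adjusted p = 0.000352) and NFYC did not pass the test (-0.04 ± 0.09).

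**Figure D5:**
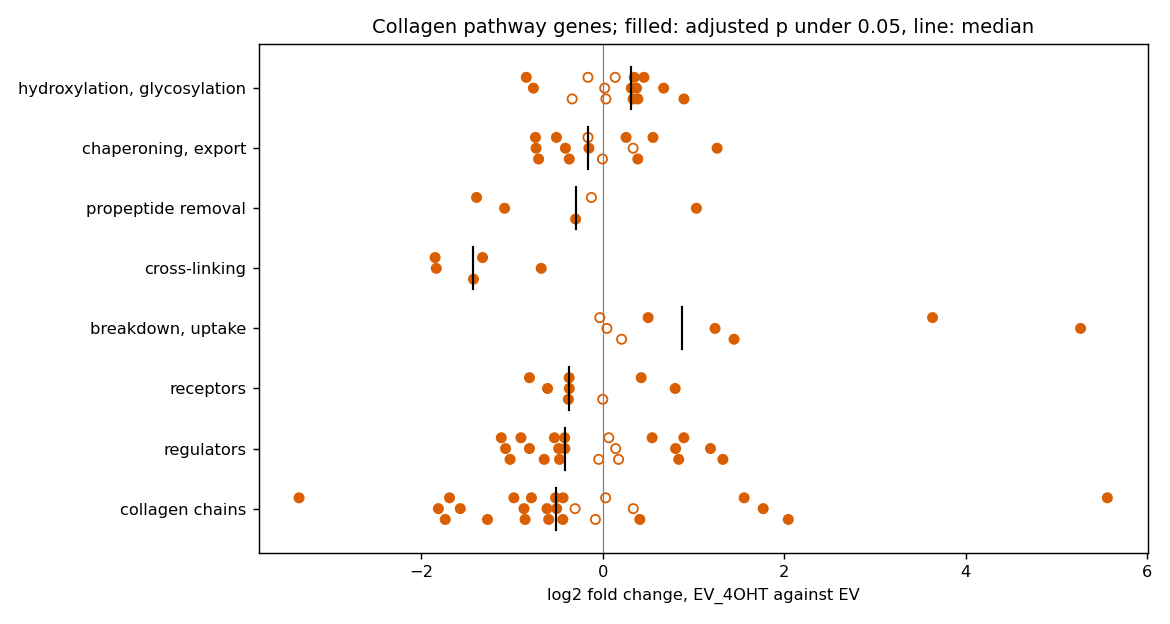
Log2 fold change in EV_4OHT against EV (x axis) of the tested genes of 7 collagen pathway lists and of the collagen chains (y axis), with filled points at an adjusted p under 0.05 and a line at the list's median. All 5 cross-linking genes lie left of 0 (median -1.42), and the filled genes of breakdown and uptake all lie right of it (median 0.87).

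With the hairpins, pathway genes passed the test in 5 of the 7 lists in shAHCY_2 and in 6 of the 7 in shAHCY_4. In shAHCY_2 against EV_4OHT, where 3.91% of all genes tested were higher and 3.07% lower, 2 of 8 tested genes of breakdown and uptake rose and 3 fell, and at most 1 gene in each direction passed in any other list. FKBP7, a folding enzyme, rose by 0.69 ± 0.11 (adjusted p = 0.000338), PCOLCE, an enhancer of procollagen trimming, by 0.30 ± 0.09 (adjusted p = 0.0498) and MMP1 by 0.27 ± 0.06. FAP, of the breakdown and uptake list, rose by 0.37 ± 0.09. CTSK fell by 0.34 ± 0.07, MMP2 by 0.34 ± 0.08 and the collagen uptake receptor MRC2 by 0.41 ± 0.11. In shAHCY_4 against EV_4OHT, where 7.58% of all genes tested were higher and 6.86% lower, 4 of 14 chaperoning and export genes rose and 0 fell, namely HSPA5 (0.44 ± 0.06), FKBP7 (0.75 ± 0.11), CREB3L1 (0.62 ± 0.11) and SEC23A (0.26 ± 0.07). Of the 15 hydroxylation and glycosylation genes, 0 rose and 4 fell there (CRTAP, PLOD2, P3H2 and PLOD3, at -0.34 to -0.46), and 5 of 8 tested receptors fell. Of 8 tested genes of breakdown and uptake 3 rose and 2 fell, 2 of 21 regulators fell, 1 of 5 cross-linking genes fell, and of 5 tested genes of procollagen trimming 0 passed (BMP1, PCOLCE, PCOLCE2, ADAMTS2 and ADAMTS3). MMP1 rose by 0.32 ± 0.06 and FAP by 0.36 ± 0.09, while MRC2 fell by 0.66 ± 0.11, MMP14 by 0.31 ± 0.09 and LOXL3 by 0.97 ± 0.28. CTSK rose by 0.21 ± 0.07 in shAHCY_4, where it had fallen in shAHCY_2, and differed between the hairpins by 0.55 ± 0.07 (adjusted p = 0.000122).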

How the data were processed

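Per the labels' protocols, total RNA was isolated (Trizol, then a column kit) and 16 Smart-Seq2 libraries were made with Nextera XT indexes. The submitters' processing notes name CASAVA 1.8.2, TopHat2 2.0.11 and featureCounts 1.18.0 with hg19 or GRCh37. Which annotation release was used, how strand was set and how multi-mapped reads were counted is not stated there or in the labels. Smart-Seq2 libraries carry no strand information. The authors deposited raw counts per gene, not normalized, for 62069 Ensembl identifiers.

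From these counts, edgeR 4.0.16 in R 4.3.3 kept 13526 genes by filterByExpr with the groups, computed TMM factors and fitted 1 quasi-likelihood model with 4 group means to the 16 libraries. Two-sided p-values were adjusted by the Benjamini-Hochberg method across the 13526 genes, with a threshold of 0.05. The standard error of a log2 fold change was taken as its size over the root of F. The 95% intervals come from it with the normal quantile, and are narrower than the F test implies. COL12A1 in shAHCY_4 against EV_4OHT, for example, had an interval of 0.0009 to 0.27 at an unadjusted p of 0.0612. Variation between the libraries of a group, beyond counting error, had a coefficient of 11.9%, and how much of it is biological is not known. Levels are TMM-scaled CPM, given as mean ± SD over 4 libraries. Levels per kb and GC content used the longest GENCODE 29 transcript (GRCh38), and GC content was at hand for all 25 tested chain genes and 97.96% of genes tested. Floors (3 counts) and chain ratios were computed from raw counts, and floors cover counting error only. The test was also run on counts simulated from its own fitted spread, with some genes changed in shAHCY_2 only. Such a run cannot check the comparisons with EV, where many genes changed, or the effect of GC trends.

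Every chain gene that passed the filter was named, the others by total count only. Each pathway list gave up to 4 genes with the smallest adjusted p in a comparison, and MRC2 in shAHCY_2, CTSK in shAHCY_4, NFYB, NFYC and NT5DC1 were added after their values were seen. The members and lists were chosen with earlier results of these data known. Alternatives were RLE, upper-quartile or no scaling factors, DESeq2 1.42.0, limma-voom (limma 3.58.1), other filters, only the groups compared, an offset that removes the GC trend of each library (smoothing spline), and leaving out each library.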

Additional observations from a re-analysis of the deposited data

Results flagged for a closer look

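In 3 of 100 groups of 4 libraries (25 chain genes in 4 groups), 1 library lay apart from the other three by Dixon's test, and chance flags about 1 in 20 groups. COL24A1 in shAHCY_2 was at 1.30 CPM in replicate 60, with the others at 3.29 to 3.61 CPM. COL4A6 in shAHCY_4 was at 7.43 CPM in replicate 61, with the others at 4.94 to 5.03 CPM. COL6A2 in EV was at 83.7 CPM in replicate 52, with the others at 73.4 to 74.1 CPM.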

How the results depend on the processing

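The counts of chain genes called in EV_4OHT against EV, in both hairpin groups against EV and between the hairpins stayed within 1.5 times their value under every alternative run. For shAHCY_2 against EV_4OHT, the 1 gene higher became 2 with no filter on low counts, 5 with the GC trend removed and 0 with only the groups compared. For shAHCY_4 against EV_4OHT, the 3 genes higher became 5 with only the groups compared, and the 1 gene lower became 2 with no filter, 2 with the GC trend removed and 4 with only the groups compared. The share of all genes called under each alternative was not computed, and the cause of these changes was not tested. Leaving out each library of the groups compared gave 4 to 6 higher and 15 to 16 lower in EV_4OHT against EV, 4 to 6 and 14 to 16 in shAHCY_2 against EV, and 4 to 5 and 14 to 15 in shAHCY_4 against EV. It gave 0 to 2 higher and always 0 lower in shAHCY_2 against EV_4OHT, 1 to 4 and 0 to 1 in shAHCY_4 against EV_4OHT, and always 0 in either direction between the hairpins. Without replicate 54 or 55 of EV_4OHT 0 genes were higher in shAHCY_2, and without replicate 59 there were 2. Without replicate 53 or 56 of EV_4OHT, or 62 or 63 of shAHCY_4, 1 was higher in shAHCY_4, and without 53, 62 or 63, 0 were lower. Over single genes, 59 fits under an alternative lost a call, 21 gained one, 2468 did neither, and no called gene changed sign. No paired analysis was possible because the groups share no replicate number. Ratios and shares of raw counts do not change with scaling factors. Chains with few counts, such as COL14A1 and COL15A1, are limited by depth.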
